A study of Mus musculus with 4 samples.

Results

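Connective tissue mast cells were picked out of CD45+ cells sorted from mouse skin and from skin tumors. A barcode was taken as a mast cell when it held at least 1000 unique molecular identifiers (UMIs), no more than 15% mitochondrial UMIs, at least 10 UMIs of Mcpt4, at least 2 UMIs of Kit, Gata2 and Ms4a2 together, and at most 1 UMI each of Csf1r and Cd3e. This rule found 108 mast cells among the 13124 barcodes that passed the UMI and mitochondrial limits, out of 14795 in the 4 libraries. Mcpt4, Kit, Gata2, Ms4a2, Csf1r and Cd3e therefore chose the cells: members were selected on these values, which are given below as a description only.

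Both groups were C57BL/6 mice, with 2 libraries each. The control skins were normal skin of C57 mice that received no tumor cells, and the age of these animals is not given in the sources used here. The skin tumors grew in female and male animals of 8 to 10 weeks from 2323 cells, a cell line inoculated at the flank. This line came from a mouse model whose alleles include K14rtTA, tetOCre and P53-/-, in which the keratin promoter drives the inducer of Cre, and it stands for the escape phase of that model only. Tissue was digested with collagenase IV, CD45+/DAPI- cells were sorted, and 3′ UMI libraries were made (10x Genomics). The sex of the animal behind each library was not given, but Xist had 0 UMIs in the mast cells of all 4 libraries. Ddx3y, a gene of the Y chromosome, was found in the mast cells of each library. The study's methods name 2 tumors and 2 control skins. Neither they nor the labels say whether each came from its own animal, so p-values measure the spread between these libraries.

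Mast cells develop from bone marrow progenitors and mature in the tissue under stem cell factor, which binds the receptor KIT. Those of connective tissue store chymases, tryptases and carboxypeptidase A with histamine on a heparin proteoglycan in their granules, and release them when IgE bound to the high-affinity receptor FcεRI is crosslinked by antigen, or when MRGPRB2 is bound by basic peptides. They also answer IL-33 through its receptor ST2, encoded by Il1rl1, and make lipid mediators, chemokines and cytokines. GATA2 binds GATA motifs at many of their genes.

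The start regions of genes that define these cells are shown because they carry the letters of that motif. Each sequence runs 5′ to 3′ on the strand of the gene from 250 bases before to 50 bases after a transcription start of RefSeq (GRCm38.p6), in lower case, with AGATAA or TGATAA and their reverse complements TTATCT and TTATCA in capitals.
Mcpt4, chr14:56062261-56062560, minus strand: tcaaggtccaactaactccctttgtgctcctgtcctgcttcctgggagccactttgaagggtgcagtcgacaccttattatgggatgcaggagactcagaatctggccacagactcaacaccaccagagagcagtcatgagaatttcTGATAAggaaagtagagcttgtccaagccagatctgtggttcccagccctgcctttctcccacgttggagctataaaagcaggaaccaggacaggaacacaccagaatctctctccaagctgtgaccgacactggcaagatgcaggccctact
Cpa3, chr3:20242132-20242431, minus strand: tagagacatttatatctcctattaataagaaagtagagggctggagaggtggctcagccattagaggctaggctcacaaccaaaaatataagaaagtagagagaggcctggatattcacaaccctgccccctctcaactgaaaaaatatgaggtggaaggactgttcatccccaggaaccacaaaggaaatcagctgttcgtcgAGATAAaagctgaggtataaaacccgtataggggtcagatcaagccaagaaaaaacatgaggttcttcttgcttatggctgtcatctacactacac
Fcer1a, chr1:173227180-173227479, minus strand: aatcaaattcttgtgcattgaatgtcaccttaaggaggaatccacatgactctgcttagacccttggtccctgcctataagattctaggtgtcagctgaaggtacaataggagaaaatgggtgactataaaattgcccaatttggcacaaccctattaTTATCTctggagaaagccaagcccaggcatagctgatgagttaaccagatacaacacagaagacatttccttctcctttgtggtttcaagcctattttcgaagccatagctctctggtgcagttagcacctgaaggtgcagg
Ms4a2, chr19:11623670-11623969, minus strand: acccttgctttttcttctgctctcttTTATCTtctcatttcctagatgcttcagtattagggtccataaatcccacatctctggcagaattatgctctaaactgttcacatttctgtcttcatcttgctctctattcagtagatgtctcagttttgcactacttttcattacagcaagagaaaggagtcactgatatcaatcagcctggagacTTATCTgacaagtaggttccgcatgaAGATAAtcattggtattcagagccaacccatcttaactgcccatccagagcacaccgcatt
Il1rl1, first listed start, chr1:40429320-40429619, plus strand: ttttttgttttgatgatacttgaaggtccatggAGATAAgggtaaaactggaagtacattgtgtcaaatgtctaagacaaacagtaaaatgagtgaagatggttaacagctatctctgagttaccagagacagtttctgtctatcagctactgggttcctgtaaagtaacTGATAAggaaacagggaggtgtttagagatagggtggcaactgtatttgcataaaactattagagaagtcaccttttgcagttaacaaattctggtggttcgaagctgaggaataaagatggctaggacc
Il1rl1, second listed start, chr1:40439379-40439678, plus strand: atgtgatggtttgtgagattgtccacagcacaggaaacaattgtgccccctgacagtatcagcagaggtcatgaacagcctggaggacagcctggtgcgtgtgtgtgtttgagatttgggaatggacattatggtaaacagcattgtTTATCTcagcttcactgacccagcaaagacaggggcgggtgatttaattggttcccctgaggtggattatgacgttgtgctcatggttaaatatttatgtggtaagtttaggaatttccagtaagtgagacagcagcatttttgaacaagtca
The motif began at -103 from the start in Mcpt4, at -46 in Cpa3, at -92 in Fcer1a, at -224, -37 and -11 in Ms4a2, and at -217 and -80 or at -103 for the listed starts of Il1rl1. Of 17 genes in the list of connective tissue mast cell markers, 14 had a promoter in the RefSeq table, and 8 of these (57.1%) held the motif on either strand, against 5664 of 27025 genes with such a sequence (21.0%). Promoters of Kit, Gata2, Cma1, Hdc, Mrgprb1 and Cyp11a1 had no match to these letters in this window. A match describes the letters only.

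Control skins 1 and 2 gave 18 and 38 mast cells, and skin tumors 1 and 2 gave 29 and 23. Their UMIs summed to 78102, 172213, 138252 and 120128 in that order, within library totals of 50932896, 52784293, 73904272 and 34893543 UMIs. The median mast cell held 3222 and 3442.5 UMIs in control skins and 4105 and 4315 UMIs in skin tumors, whereas the median of the other passing cells lay between 11052 and 13702 UMIs. Mitochondrial UMIs made up a median of 3.005%, 2.31%, 3.65% and 3.52% of a mast cell in the same order of libraries. Mcpt4 per mast cell had a median of 67.5 and 80 UMIs in control skins and 103 and 105 UMIs in skin tumors. Of the members, 2 and 3 cells of the control libraries and 0 and 3 cells of the tumor libraries lay just above the limit, with 10 to 19 Mcpt4 UMIs. Cells with 5 to 9 Mcpt4 UMIs, which met every other limit, numbered 1 and 2 in the control libraries and 0 and 1 in the tumor libraries. The limits on Csf1r and Cd3e removed 21 and 14 barcodes from the control libraries and 0 and 3 from the tumor libraries, and those removed held a median of 15016, 17425 and 9003 UMIs. Between 1 and 7 barcode sequences were shared by each pair of libraries, and none of them was a mast cell in both.

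Levels are given in CPM, the UMIs of a gene in the mast cells of a library scaled to a common total of their UMIs, with each library's own total corrected by the trimmed mean of M values (TMM). A UMI is counted once per molecule at its 3′ end, so these levels were not divided by gene length. The 17 connective tissue mast cell markers summed to 56473 and 65523 CPM in control skins and 113621 and 77004 CPM in skin tumors, against 295, 279, 262 and 353 CPM in all other cells of the same libraries. That list holds 4 of the genes by which the cells were chosen (Mcpt4, Kit, Gata2 and Ms4a2). The 13 other markers, which the rule did not use, summed to 34633 and 41450.4 CPM in control skins and 77184 and 54145 CPM in skin tumors, against 212, 217, 244 and 321 CPM in all other cells, and none of them was at 0 in any library. The receptor Kit stood at 867 and 750.3 CPM in control skins and 1362 and 578 CPM in skin tumors. Mcpt4, a chymase of connective tissue mast cells, was at 19957 and 22112 CPM in control skins and 33869 and 21568 CPM in skin tumors. In both, skin tumor 1 was the highest of the 4 libraries and skin tumor 2 lay below control skin 2. Gata2, the transcription factor, was at 636 and 803 CPM in control skins and 836 and 510.1 CPM in skin tumors. Ms4a2, the beta chain of FcεRI, was at 381 and 407 CPM in control skins and 371 and 204 CPM in skin tumors. For all 4 of these genes, which the rule used, the groups overlapped or, in Ms4a2, both tumors lay below both controls. Mucosal mast cell and basophil markers summed to 474 and 555 CPM in control skins and 1232 and 927 CPM in skin tumors, with Cd200r3, also present on connective tissue mast cells, the most abundant. Mcpt8, a basophil protease, had 0 and 1 UMIs in control skins and 9 and 0 UMIs in skin tumors, Mcpt1 had 0 and 0 UMIs in control skins and 1 and 0 UMIs in skin tumors, and Itgam, an integrin chain of myeloid cells, had 0 and 3 UMIs in control skins and 1 and 3 UMIs in skin tumors. Mcpt2, a mucosal chymase, had 0 and 1 UMIs in control skins and 36 and 3 UMIs in skin tumors, so that most of its UMIs came from a single library.

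RNA of genes that mark other cell types was present in the mast cells, unevenly among libraries. Csf1r and Cd3e, which belong to the macrophage and T cell lists, were limited to 1 UMI per cell by the rule. Sums of those lists were therefore held down by the choice of cells. The 14 macrophage and monocyte markers summed to 1433 and 2827 CPM in control skin mast cells and 784 and 2856 CPM in skin tumor mast cells, against 2683, 5248, 14526 and 12557 CPM in the other cells. The most abundant of them was Apoe in the first 3 libraries and Lyz2 in skin tumor 2, and 8, 1, 5 and 3 of the 14 were at 0. Dendritic and Langerhans cell markers, led by Cd74 in each library, summed to 5986 and 6404 CPM in control skins and 681 and 5653 CPM in skin tumors, against 22989.6, 21196, 21129.8 and 17799.8 CPM in the other cells, with 4, 2, 6 and 6 of 11 at 0. A single cell held 87.6% of the Cd74 UMIs of control skin 1, and skin tumor 1 was far below the other 3 libraries. T and NK cell markers summed to 289, 122, 60.3 and 162 CPM, neutrophil markers to 0, 10.6, 8.62 and 153 CPM, and keratinocyte and fibroblast markers to 69.3, 31.7, 8.62 and 8.50 CPM. The part these RNAs had in the results below was not tested except where a value without them is given.

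The first question was whether mast cells made up a different share of the CD45+ cells in tumors. Mast cells were 18 of 3114 cells (0.578%, 95% Clopper-Pearson interval 0.343 to 0.912%) in control skin 1 and 38 of 3190 (1.19%, 0.844 to 1.63%) in control skin 2. They were 29 of 4813 (0.603%, 0.404 to 0.864%) in skin tumor 1 and 23 of 2007 (1.15%, 0.728 to 1.71%) in skin tumor 2. The library with the lower share was at about the same level in both groups, and so was the library with the higher share, so under this rule the groups overlapped fully. Shares averaged 0.885 ± 0.434% in control skins and 0.874 ± 0.384% in skin tumors (mean ± SD, n = 2 libraries each), a difference of -0.0104 percentage points with p = 1 in a two-sided exact permutation test, which with 2 against 2 libraries cannot go below 0.333. The intervals cover counting error only. The comparison depended on the rule. Without the limits on Csf1r and Cd3e the shares were 1.25% and 1.63% for the control libraries and 0.603% and 1.30% for the tumor libraries, a difference of -0.492 percentage points, and with a rule that asked for at least 5 UMIs of Cpa3, Kit, Gata2 and Ms4a2 together in place of both the Mcpt4 limit and the limit of 2 UMIs they were 2.89% and 3.26% for the control libraries and 1.87% and 1.79% for the tumor libraries, where the groups did not overlap. Of the 90, 104, 90 and 36 cells that this last rule took, 72, 62, 59 and 7 held no Cpa3 UMI. No Mcpt4 UMI but at least 5 Kit UMIs were held by 69, 61, 56 and 8 of them, and 18, 38, 29 and 23 were also taken by the main rule. Its shares are thus largely those of other cells in the control skins and skin tumor 1, and whether these were mast cells was not tested. A share of sorted cells does not give mast cells per area of skin, because the number of other CD45+ cells per area was not measured.

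**Figure D1:**
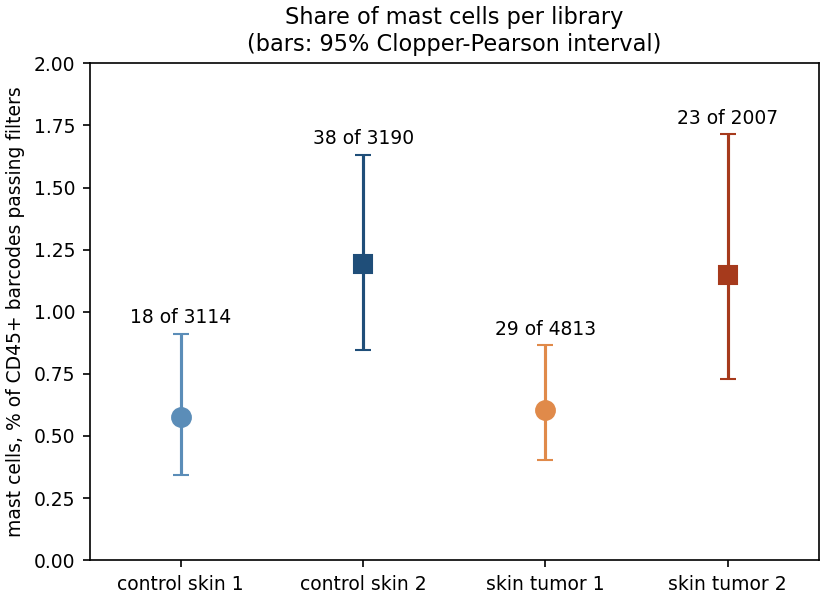
Mast cells as a percentage of the CD45+ barcodes that passed the filters (y axis), for each of the 4 libraries (x axis), with 95% Clopper-Pearson intervals as bars and the number of mast cells of all passing barcodes above each point. Control skin 1 and skin tumor 1 sit at 0.578% and 0.603%, and control skin 2 and skin tumor 2 at 1.19% and 1.15%.

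The second question was which genes differed between mast cells of skin tumors and of control skin. UMIs were summed over the mast cells of each library and compared with the edgeR quasi-likelihood test, with Benjamini-Hochberg adjustment over the 2155 genes that passed a filter on low counts. Many of the genes called below passed that filter through their higher group alone, and they are named further down. In the skin tumors 24 genes were higher (1.11% of those tested) and 23 lower (1.07%) at an adjusted p under 0.05. Those 47 adjusted p-values lay between 0.0318 and 0.0495, and 202 and 174 genes had an unadjusted p under 0.05. In all 47 the 2 tumor libraries lay on the same side of both control libraries, which was also so for 25.3% of all genes tested in the upward and 24.4% in the downward direction. With DESeq2 the split was 35 higher and 19 lower, and with limma on mean CPM per cell 21 higher and 37 lower. Of the 47 genes, 33 were also called with DESeq2, 31 with limma on mean CPM per cell, and 19 in edgeR with the size factors of DESeq2. With DESeq2 the calls of Cadm1, Cd84, Clec10a, Gga2, H2-Q6, Hipk2, Icos, Klf4, Lilr4b, Ndst3, Pdlim1, Tbc1d4, Tiam1 and Tpsg1 were lost, at DESeq2 adjusted p-values from 0.0568 to 0.116. With the size factors of DESeq2 in edgeR, 28 calls were lost at adjusted p-values from 0.0503 to 0.0609, those of Il1rl1, Alox5, Hsp90aa1 and Hspa1a among them. Limma on mean CPM per cell lost Cd84, Fam129a, Furin, Gm20186, H2-Q6, Hipk2, Icos, Itga4, Lilr4b, Maml2, Mgat5, Ndst3, Ptprg, Sapcd1, Tbc1d4 and Zcchc10, at limma adjusted p-values from 0.0565 to 0.106. The calls rested on both control libraries. Without control skin 1 no gene passed (smallest edgeR adjusted p = 0.658) and without control skin 2 none passed (0.601), while 266 and 338 genes passed without skin tumor 1 or 2. This holds for every gene described below as higher or lower.

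The calls also depended on how the mast cells were chosen. Without the limits on Csf1r and Cd3e edgeR lost 12 of the 47, at adjusted p-values from 0.0548 to 0.196 and log2 differences of -1.56 for Auts2, -1.52 for Cadm1, -7.36 for Ccdc141, -1.04 for Clec10a, -1.52 for Gga2, 2.47 for Gm20186, -0.99 for Gnai1, -2.49 for Myadm, -2.59 for Ncam1, -2.81 for Pdlim1, -1.47 for Slc29a1 and -0.89 for Tpsg1. The value of Ccdc141, and that of Cd207 below, rests on the prior count, since tumors had 0 UMIs. Of the 35 genes still called there, 11 had a fitted fold, not a log2 value, smaller by over 1.5 times. Their log2 differences were -4.22 for Bex4, -2.71 for Chpt1, 2.98 for Edil3, -3.28 for Emp1, -1.92 for Fam102b, 2.20 for Hipk2, 2.85 for Hspa1a, 3.21 for Pla2g7, -3.81 for Sgcd, 2.30 for Sox5 and 1.72 for Ubash3b. The fitted fold was larger by over 1.5 times for 6, with log2 differences of -10.16 for Cd207, 3.24 for Il1rl1, 5.59 for Ndst3, 5.85 for Sapcd1, -5.69 for Tbc1d4 and 3.13 for Zcchc10. The moves of Bex4 and Cd207 are not measured, since with the limits tumors had 0 UMIs of both and the prior count set the difference. With at least 1 Mcpt4 UMI and at least 3 UMIs of Kit, Gata2 and Ms4a2, 29 of the 47 genes were called and Bex4 was not tested. The 17 lost had adjusted p-values from 0.0512 to 0.904 and log2 differences of -2.15 for Auts2, -0.43 for Cadm1, 1.17 for Cd84, -1.69 for Clec10a, 2.65 for Edil3, 1.40 for Fam129a, 0.98 for Furin, -2.74 for Gfra2, 0.86 for Gm20186, -1.59 for Gnai1, 0.60 for H2-Q6, 1.69 for Hipk2, 0.42 for Mgat5, -0.20 for Tbc1d4, -1.63 for Tiam1, -1.51 for Tpsg1 and 1.58 for Ubash3b. With at least 5 UMIs of Cpa3, Kit, Gata2 and Ms4a2 and no limit on Mcpt4, 5 of the 47 were called (Cd207, Hsp90aa1, Hspa1a, Hsph1 and Sgcd). In both control skins and skin tumor 1 most cells of that rule lay outside the main rule, so its values do not describe the same cells. Bex4 was again not tested, and the 41 lost had edgeR adjusted p-values from 0.0569 to 0.974. The opposite sign was found for 9, without passing, at 0.39 for Cadm1, -1.44 for Cd84, -1.12 for Edil3, -0.85 for Fam129a, -1.27 for Furin, -1.42 for Gm20186, -0.22 for H2-Q6, -1.46 for Mgat5 and 0.53 for Tbc1d4.

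**Figure D2:**
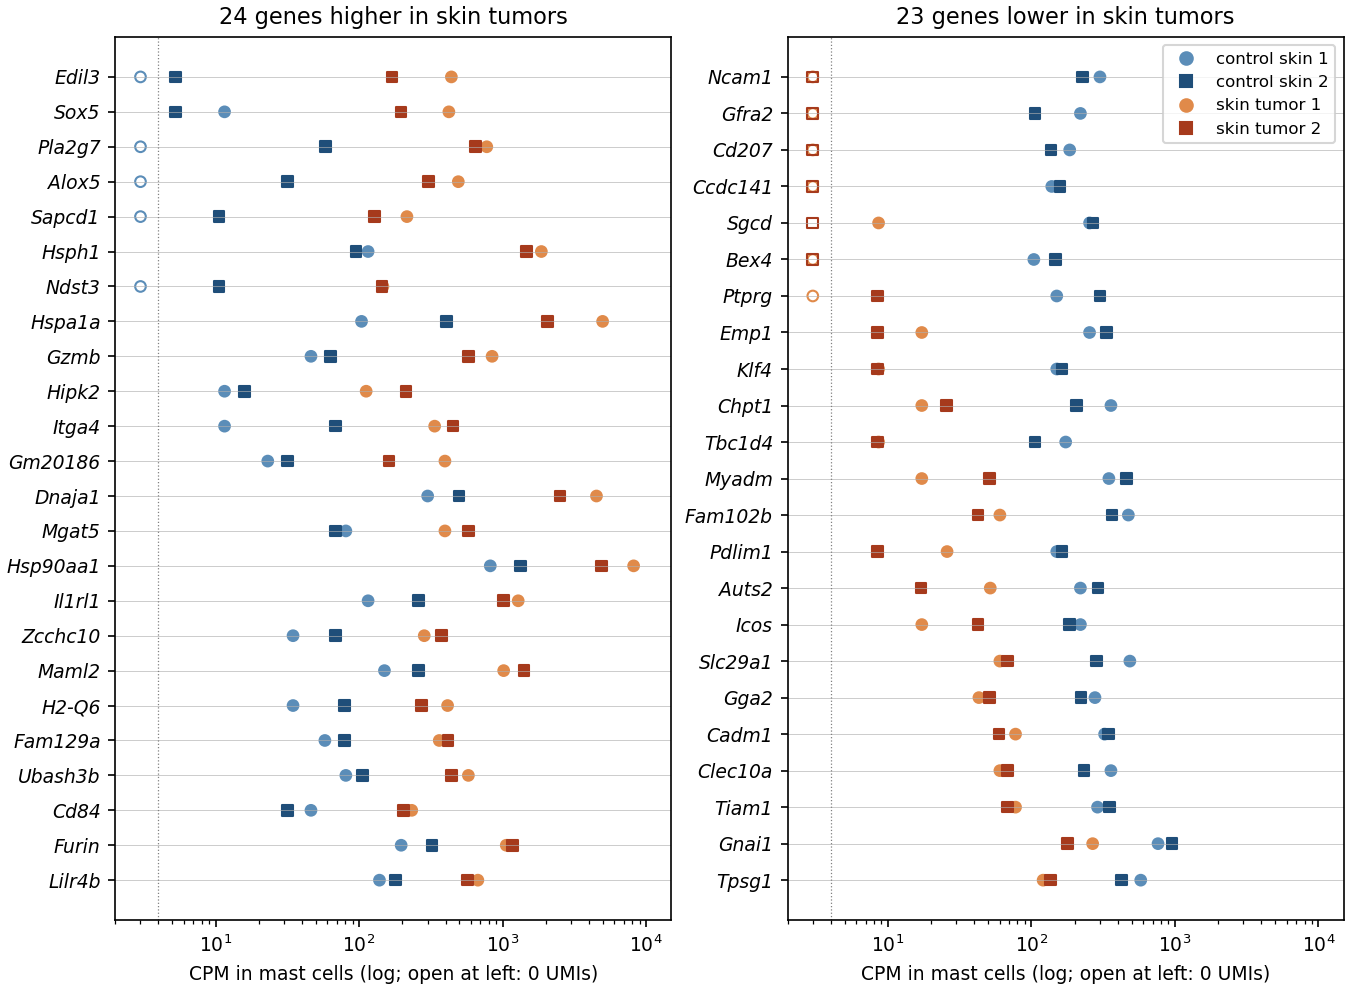
Level in mast cells (CPM, log axis) of the 24 genes that were higher (left) and the 23 that were lower (right) in skin tumors, one point per library, with open symbols at the left edge for libraries with 0 UMIs. For every gene the 2 tumor libraries lie on one side of both control libraries, with Ncam1, Gfra2, Cd207, Ccdc141 and Bex4 at 0 UMIs in both tumors.

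Fcer1a, Il1rl1 and Tpsb2, which encode a chain of the IgE receptor, the IL-33 receptor and a tryptase, were higher in both tumor libraries than in both control libraries, and of these 3 genes Il1rl1 passed the test. Fcer1a (ENSMUSG00000005339, chr1:173221284-173227214, minus strand, GRCm38), the chain of FcεRI that binds IgE and whose promoter is printed above, had 14 and 163 UMIs in control skins and 410 and 217 UMIs in skin tumors. It was found in 5 of 18 and 17 of 38 mast cells in control skins and in 28 of 29 and 22 of 23 in skin tumors. With every cell thinned to 1000 UMIs, which lost no mast cell, Fcer1a was found in 5.56% and 23.7% of control skin mast cells and 82.8% and 69.6% of skin tumor mast cells, against 0% of T cells. Levels were 162 and 861 CPM in control skins 1 and 2 and 3533 and 1845 CPM in skin tumors 1 and 2, or 512 ± 495 CPM against 2689 ± 1194 CPM (mean ± SD, n = 2 libraries each). Both tumor libraries were above both control libraries, but the control libraries lay far apart, a single cell held 64.3% and 51.5% of their Fcer1a UMIs, and the difference did not pass the test (log2 difference 2.30 ± 0.71, edgeR adjusted p = 0.162). It passed with DESeq2 (log2 difference 2.35, adjusted p = 0.0419), with limma on mean CPM per cell (2.96, 0.0369) and in edgeR without the limits on Csf1r and Cd3e (3.34, 0.0455). For Fcer1g, the signaling chain of the receptor, the groups overlapped, at 1895 and 2341 CPM in control skins and 2223 and 1709 CPM in skin tumors (log2 difference -0.15 ± 0.35, edgeR adjusted p = 0.871). Ms4a2, the beta chain, was used to choose the cells, so its levels above are a description only.

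Il1rl1 (ENSMUSG00000026069, chr1:40429570-40465415, plus strand), the IL-33 receptor, rose. It had 10 and 49 UMIs in control skins and 149 and 119 UMIs in skin tumors, in 3 of 18, 9 of 38, 26 of 29 and 22 of 23 cells. Levels were 116 and 259 CPM in control skins 1 and 2 and 1284 and 1012 CPM in skin tumors 1 and 2, or 187 ± 101 CPM against 1148 ± 193 CPM (mean ± SD, n = 2 libraries each). Both tumor libraries were several times above both control libraries, where a single cell held 50% and 48.98% of the Il1rl1 UMIs, and the difference passed the test (log2 difference 2.51 ± 0.45 (SE), edgeR adjusted p = 0.0438). After thinning to 1000 UMIs, 5.56% and 7.89% of control skin mast cells and 58.6% and 60.9% of skin tumor mast cells had Il1rl1, against 1.81% of T cells. In the other cells Il1rl1 was at 20.9 and 16.6 CPM in control skins and 7.48 and 17.5 CPM in skin tumors. Il1rap, which encodes the partner chain of that receptor, went the other way without passing the test, at 116 and 106 CPM in control skins and 8.62 and 0 CPM in skin tumors (log2 difference -4.43 ± 0.88, edgeR adjusted p = 0.0540).

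Fcer1a and Il1rl1 were found together in most mast cells of tumors and in few of control skin. Both were present in 2 of 18 and 8 of 38 control skin cells and in 26 of 29 and 21 of 23 skin tumor cells. Neither was found in 12 and 20 control skin cells, and in 1 and 0 skin tumor cells. At the depth of these cells a gene with 0 UMIs is not shown to be absent.

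Tpsb2 (ENSMUSG00000033825, chr17:25366305-25369098, plus strand), a tryptase of the granule, had a median of 3.5 and 6.5 UMIs per mast cell in the control libraries and 50 and 41 UMIs in the tumor libraries. Levels were 2126 and 3329 CPM in control skins 1 and 2 and 13703 and 8476 CPM in skin tumors 1 and 2. The tumor libraries were both above the control libraries, and the test was not passed (log2 difference 1.98 ± 0.44, edgeR adjusted p = 0.0716). Tpsb2 passed with DESeq2 (log2 difference 1.99, adjusted p = 0.00901), with limma on mean CPM per cell (2.01, 0.0264) and in edgeR without the limits on Csf1r and Cd3e (2.76, 0.0294). Tpsab1, a closely similar tryptase, was also higher in both tumor libraries without passing the test, at 34.7 and 296 CPM in control skins and 1896 and 1419.7 CPM in skin tumors (log2 difference 3.16 ± 0.73, edgeR adjusted p = 0.0798). Reads of these near-identical tryptases may be split between them by the counting.

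**Figure D3:**
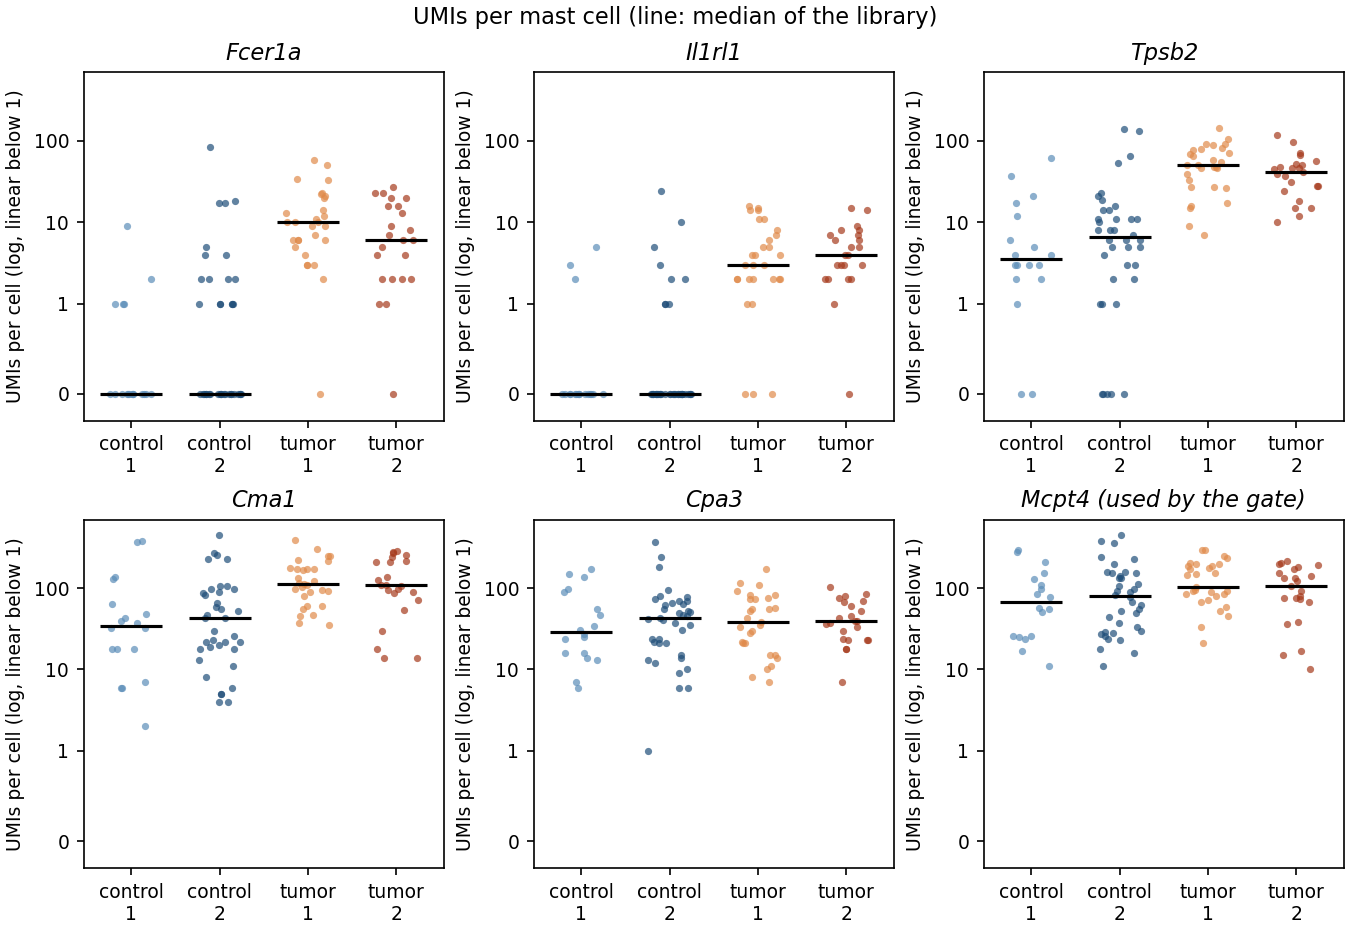
UMIs per mast cell (y axis, logarithmic above 1 and linear below) of Fcer1a, Il1rl1, Tpsb2, Cma1, Cpa3 and Mcpt4 in each library (x axis), one point per cell, with the median of the library as a line. Median Tpsb2 is 3.5 and 6.5 UMIs in the control libraries and 50 and 41 in the tumor libraries, whereas Cpa3 has similar medians in all 4 libraries.

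Among the other granule proteases, chymase and carboxypeptidase did not pass the test. Cma1, a chymase, was at 16120.3 and 19941 CPM in control skins and 34360.3 and 26532 CPM in skin tumors (log2 difference 0.71 ± 0.41, edgeR adjusted p = 0.431), and Cpa3, carboxypeptidase A, at 11139.7 and 11555 CPM in control skins and 12488 and 8790.3 CPM in skin tumors (log2 difference -0.14 ± 0.38, edgeR adjusted p = 0.898). Together Mcpt4, Cma1, Cpa3 and Tpsb2 took a median of 4.06% and 4.56% of the UMIs of a mast cell in the control libraries and 8.03% and 6.50% in the tumor libraries, and single cells ranged from 0.245% to 17.9%. Mcpt4 was among the genes that chose the cells, so this share is a description only. Gzmb (ENSMUSG00000015437, chr14:56258838-56262260, minus strand), granzyme B, a serine protease best known from cytotoxic lymphocytes, rose. Its levels were 46.2 and 63.4 CPM in control skins 1 and 2 and 845 and 578 CPM in skin tumors 1 and 2, or 54.8 ± 12.1 CPM against 711 ± 188 CPM (mean ± SD, n = 2 libraries each). The tumor libraries exceeded the control libraries severalfold (log2 difference 3.58 ± 0.41, edgeR adjusted p = 0.0325). Gzmb was found in 3 of 18, 3 of 38, 20 of 29 and 9 of 23 mast cells, and in the other cells its level was 97.1 and 34.9 CPM in control skins and 77.2 and 84.2 CPM in skin tumors. Tpsg1, a membrane-bound tryptase encoded next to Tpsb2, fell, from 500.2 ± 109.7 to 128 ± 10.9 CPM (log2 difference -1.98 ± 0.36, edgeR adjusted p = 0.0458). The log2 difference of Tpsg1 was -0.89 without the limits on Csf1r and Cd3e and did not pass (edgeR adjusted p = 0.154). The lysosomal protease Ctsd was at 335 and 481 CPM in control skins and 1809.8 and 1131 CPM in skin tumors (log2 difference 1.79 ± 0.39, edgeR adjusted p = 0.0710). In all, 1 of the 13 proteases tested rose, 1 fell, and 11 had a positive log2 difference, where 1.11% of all genes tested rose and 1.07% fell, with a median of 1.00 against -0.01 over the 2140 genes tested outside the gate.

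The matrix and amines of the granule held no gene that passed the test, out of 15. Hdc, which makes histamine from histidine, was at 1456 and 1596 CPM in control skins and 5964 and 2363 CPM in skin tumors (log2 difference 1.40 ± 0.48, edgeR adjusted p = 0.190), with skin tumor 1 far above the other 3 libraries. Srgn, the core protein that carries heparin, was at 2115 and 3477 CPM in control skins and 5257 and 4642 CPM in skin tumors (log2 difference 0.78 ± 0.39, edgeR adjusted p = 0.347). Chst11, a sulfotransferase of chondroitin, was at 46.2 and 185 CPM in control skins and 776 and 850.1 CPM in skin tumors (log2 difference 2.64 ± 0.54, edgeR adjusted p = 0.0579). Ndst2, the sulfotransferase of mast cell heparin, was at 150.2 and 116 CPM in control skins and 51.7 and 25.5 CPM in skin tumors (log2 difference -1.76 ± 0.49, edgeR adjusted p = 0.138). The median log2 difference of the 15 was 0.24.

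The lists of signaling below FcεRI and of the receptors of connective tissue mast cells held 1 call, where 1.11% of all genes tested rose and 1.07% fell. None of 17 genes of the IgE receptor list passed the test, and their median log2 difference was 0.50. Mrgprb2, the receptor for basic peptides, was at 139 and 127 CPM in control skins and 379 and 119 CPM in skin tumors (log2 difference 0.87 ± 0.54, edgeR adjusted p = 0.462). Its relatives Mrgprb1 and Mrgprx2 were at 1028 and 1141 CPM in control skins and 914 and 723 CPM in skin tumors and at 104 and 248 CPM in control skins and 302 and 272 CPM in skin tumors, respectively. Il1rl1 was the 1 gene of 15 growth factor and cytokine receptors that passed. Of the 15, 7 had a positive log2 difference (median -0.17), against 1061 of the 2140 genes tested outside the gate. Neither the 6 inhibitory receptors (median 0.65) nor the 6 G protein-coupled and complement receptors (median 0.06) held a call. Lilr4b, an immunoglobulin-like receptor of myeloid cells outside that list, rose (139 and 179.6 CPM in control skins and 672 and 569.6 CPM in skin tumors, log2 difference 1.89 ± 0.34, edgeR adjusted p = 0.0458), as did Cd84, a SLAM family receptor (46.2 and 31.7 CPM in control skins and 233 and 204 CPM in skin tumors, log2 difference 2.49 ± 0.44, edgeR adjusted p = 0.0438). Reads of Lilr4b may be shared with its close copy Lilrb4a, which was at 23.1 and 42.3 CPM in control skins and 112 and 136 CPM in skin tumors (log2 difference 1.73 ± 0.49, edgeR adjusted p = 0.141).

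Among enzymes of lipid mediators, Alox5 (ENSMUSG00000025701, chr6:116410077-116461178, minus strand), the lipoxygenase that starts leukotriene synthesis, rose. It had 0 and 6 UMIs in control skins and 57 and 36 UMIs in skin tumors, so control skin 1 had no UMI and both tumors were well above both control libraries. A single cell held 44.4% of the Alox5 UMIs of skin tumor 2. Levels were 0 and 31.7 CPM in control skins and 491 and 306 CPM in skin tumors (log2 difference 4.15 ± 0.66, edgeR adjusted p = 0.0368), whereas in the other cells Alox5 was at 27.9 and 27.5 CPM in control skins and 4.22 and 6.56 CPM in skin tumors. Alox5ap, its activating protein, was at 46.2 and 190.2 CPM in control skins and 681 and 399.6 CPM in skin tumors (log2 difference 2.00 ± 0.56, edgeR adjusted p = 0.138), and Hpgds, a prostaglandin D2 synthase, at 369.8 and 476 CPM in control skins and 249.9 and 145 CPM in skin tumors (log2 difference -1.15 ± 0.38, edgeR adjusted p = 0.175). Pla2g7, the hydrolase that inactivates platelet-activating factor, rose from 0 and 58.1 CPM in control skins to 776 and 646 CPM in skin tumors (log2 difference 4.20 ± 0.69, edgeR adjusted p = 0.0416). Its level in the other cells was 51.98 and 75.9 CPM in control skins and 276 and 332 CPM in skin tumors.

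Cytokines and chemokines held no gene that passed, out of 13 tested. The chemokines Ccl7 and Ccl2, which attract monocytes, were the most abundant, with Ccl7 at 3605 and 3102 CPM in control skins and 6369 and 3452 CPM in skin tumors and Ccl2 at 1803 and 1474 CPM in control skins and 3913 and 1598 CPM in skin tumors, and for both the groups overlapped. Il6 was at 80.9 and 26.4 CPM in control skins and 345 and 221 CPM in skin tumors (log2 difference 2.54 ± 0.55, edgeR adjusted p = 0.0686), and Il4 at 300.4 and 222 CPM in control skins and 249.9 and 221 CPM in skin tumors (log2 difference -0.17 ± 0.34, edgeR adjusted p = 0.851). Vegfa, the angiogenic factor, was at 57.8 and 63.4 CPM in control skins and 362 and 128 CPM in skin tumors (log2 difference 1.93 ± 0.57, edgeR adjusted p = 0.144). Osm, a cytokine of the IL-6 family, had both tumor values below both control values, at 196 and 153 CPM in control skins and 34.5 and 59.5 CPM in skin tumors (log2 difference -1.88 ± 0.47, edgeR adjusted p = 0.102).

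Heat shock chaperones formed the list with the most calls. HSPs fold and refold proteins and their genes are induced by heat and other stress. Of 13 chaperone genes tested, 4 rose and none fell, all 13 had a positive log2 difference (median 2.76), and in 11 both tumor libraries were above both control libraries. Over all 2155 genes tested, 1.11% rose and 25.3% had both tumor libraries above both control libraries. Of the 2140 outside the gate, 1061 had a positive log2 difference. Hsph1 (ENSMUSG00000029657, chr5:149614287-149636376, minus strand), a nucleotide exchange factor for HSP70, was at 116 and 95.1 CPM in control skins 1 and 2 and 1862 and 1471 CPM in skin tumors 1 and 2, or 105 ± 14.5 CPM against 1666 ± 276 CPM (mean ± SD, n = 2 libraries each). Both tumor libraries were far above both control libraries (log2 difference 3.95 ± 0.39, edgeR adjusted p = 0.0318). Dnaja1, a cochaperone of HSP70, was at 300.4 and 497 CPM in control skins and 4507 and 2508 CPM in skin tumors (log2 difference 3.07 ± 0.46, edgeR adjusted p = 0.0325). Hsp90aa1, the inducible HSP90, was at 820.5 and 1337 CPM in control skins and 8179 and 4888 CPM in skin tumors (log2 difference 2.54 ± 0.45, edgeR adjusted p = 0.0432). Hspa1a, an inducible HSP70 with a near-identical neighbor in Hspa1b, was at 104 and 407 CPM in control skins and 4973 and 2049 CPM in skin tumors (log2 difference 3.66 ± 0.70, edgeR adjusted p = 0.0495), with 639 and 442 CPM in control skins and 2290.4 and 1913 CPM in skin tumors in the other cells. Hspa1b was at 289 and 782 CPM in control skins and 5559 and 2117 CPM in skin tumors (log2 difference 2.76 ± 0.63, edgeR adjusted p = 0.0787). Hspb1 was at 0 and 63.4 CPM in control skins and 1232 and 153 CPM in skin tumors, and 1 cell of skin tumor 1 held 79.7% of that library's UMIs (log2 difference 4.03 ± 1.13, edgeR adjusted p = 0.138). Hspa5, the chaperone of the endoplasmic reticulum, was at 1271 and 867 CPM in control skins and 1215 and 1938 CPM in skin tumors, with the groups overlapping.

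Hsph1 and Hsp90aa1 also had both tumor values above both control values in the other cells, where Hsph1 was at 249.8 and 151 CPM in control skins and 864 and 752 CPM in skin tumors and Hsp90aa1 at 993 and 804 CPM in control skins and 2989 and 3256 CPM in skin tumors. Tested as an interaction between cell class and group, the difference was larger in mast cells for Hsph1 (by 1.93 on the log2 scale, edgeR adjusted p = 0.00884), Dnaja1 (2.05, 0.00244), Dnajb1 (1.76, 0.0215) and Hspa1a (1.73, 0.0417). For Hsp90aa1 it was 0.80 and did not pass (edgeR adjusted p = 0.958). Immediate early genes, which code for factors that follow a stimulus within minutes, held no call. None of 20 tested passed, and 7 had a positive log2 difference. Both tumor values lay above both control values in 3 and below them in 9, against 25.3% and 24.4% of all genes tested. The list of 25 summed to 21552 and 16105 CPM in control skins and 21614 and 7855 CPM in skin tumors, so skin tumor 2 was lowest. Jun was at 2785 and 1907 CPM in control skins and 4533 and 1114 CPM in skin tumors (log2 difference 0.21 ± 0.61, edgeR adjusted p = 0.899), with skin tumor 1 highest and skin tumor 2 lowest. Ier3 was at 855 and 560.1 CPM in control skins and 1809.8 and 1369 CPM in skin tumors (log2 difference 1.13 ± 0.37, edgeR adjusted p = 0.177), above both controls in both tumors. Fos was at 3004 and 1368 CPM in control skins and 914 and 136 CPM in skin tumors (log2 difference -2.11 ± 0.80, edgeR adjusted p = 0.235), Dusp1 at 2438 and 1833 CPM in control skins and 1284 and 179 CPM in skin tumors and Zfp36 at 1098 and 1136 CPM in control skins and 517 and 179 CPM in skin tumors. In Fos, Dusp1 and Zfp36 both tumor values lay below both control values.

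**Figure D4:**
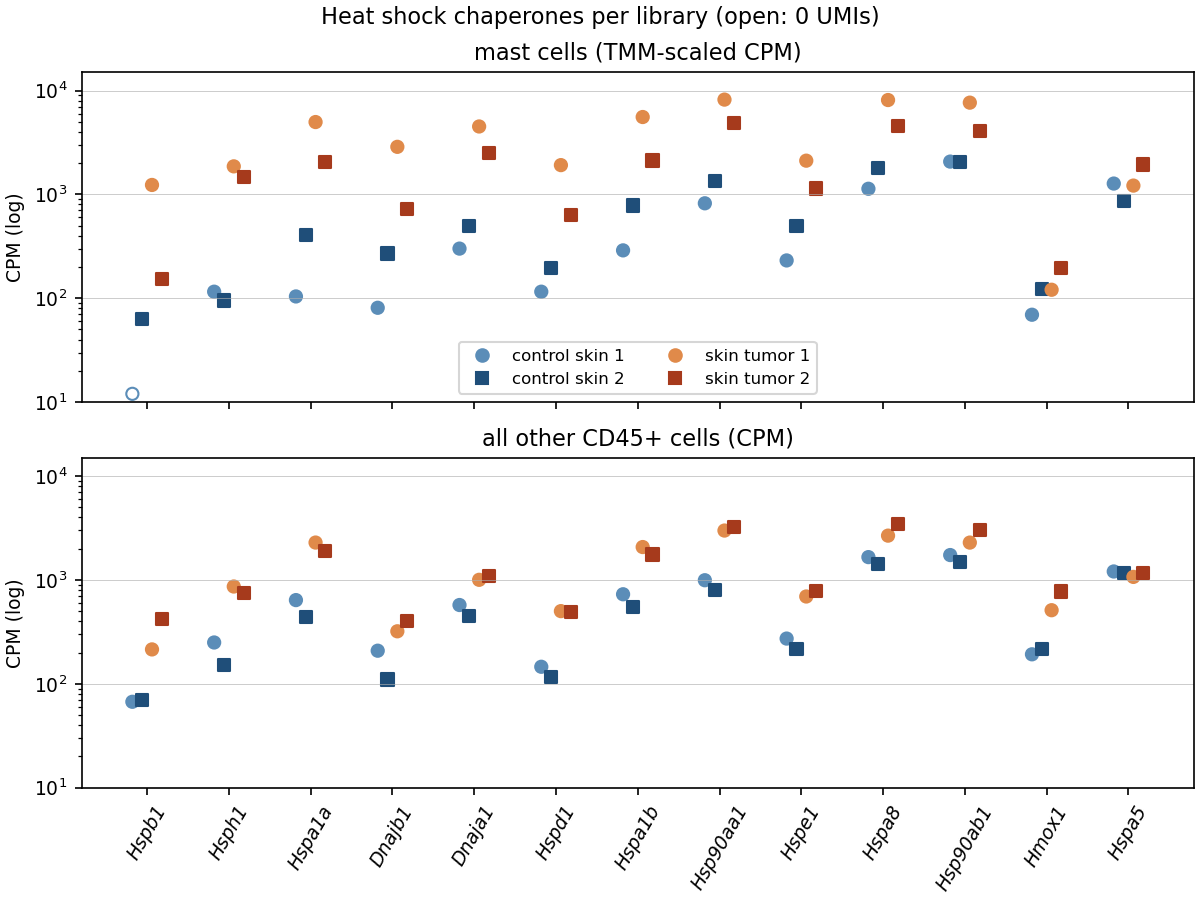
Level of 13 heat shock chaperone genes (CPM, log axis) in mast cells (top, TMM-corrected) and in all other CD45+ cells (bottom, plain CPM) of each library, with open symbols for 0 UMIs. Hsph1 in mast cells lies at 116 and 95.1 CPM in control skins and at 1862 and 1471 CPM in skin tumors, and most other chaperones show both tumors above both controls in both panels.

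Of the genes of MHC class I and its antigen processing, which show peptides to CD8+ T cells, 1 rose. All 14 tested had a positive log2 difference (median 1.46), and in 12 both tumor libraries were above both control libraries. Over all genes tested, 1.11% rose and 25.3% had both tumor libraries above both control libraries. Of the 2140 outside the gate, 1061 had a positive log2 difference. H2-Q6, a nonclassical class I gene whose reads may be shared with H2-Q4 and H2-Q7, rose (34.7 and 79.3 CPM in control skins and 414 and 272 CPM in skin tumors, log2 difference 2.40 ± 0.45, edgeR adjusted p = 0.0473), a call that was lost with DESeq2 (adjusted p = 0.0568), with its size factors in edgeR (0.0584) and with limma on mean CPM per cell (0.0700). The classical genes H2-K1 and H2-D1 were at 901 and 750.3 CPM in control skins and 1887 and 1785 CPM in skin tumors (log2 difference 1.11 ± 0.33, edgeR adjusted p = 0.147) and at 809 and 808 CPM in control skins and 1991 and 2439.9 CPM in skin tumors (log2 difference 1.42 ± 0.34, edgeR adjusted p = 0.0911). Psmb8, a subunit of the immunoproteasome, was at 69.3 and 127 CPM in control skins and 388 and 442 CPM in skin tumors (log2 difference 1.95 ± 0.39, edgeR adjusted p = 0.0540). Of 8 interferon response genes none passed and all 8 had a positive log2 difference (median 0.74), with Isg15 at 312 and 317 CPM in control skins and 758 and 1513 CPM in skin tumors (log2 difference 1.82 ± 0.44, edgeR adjusted p = 0.0911). JAK STAT3 signaling had no call among 6 genes tested, glycolysis and hypoxia none among 15, cell cycle none among 7 and sex genes none among 2.

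Of 13 genes of adhesion and homing tested, 1 rose, 1 fell and 11 did not pass, where 1.11% of all genes tested rose and 1.07% fell. Itga4, the integrin chain that binds VCAM1, rose (11.6 and 68.7 CPM in control skins and 336 and 451 CPM in skin tumors, log2 difference 2.98 ± 0.55, edgeR adjusted p = 0.0468), with 44.8 and 52.6 CPM in control skins and 170.2 and 127 CPM in skin tumors in the other cells. The log2 difference of Itga4 was 0.71 with the rule on Cpa3 and did not pass (edgeR adjusted p = 0.351). With at least 1 Mcpt4 UMI and 3 of the other marker genes it was 2.70 and passed (0.0207). Cadm1, an adhesion molecule through which mast cells bind fibroblasts and nerve fibers, fell (324 and 343 CPM in control skins and 77.6 and 59.5 CPM in skin tumors, log2 difference -2.31 ± 0.36, edgeR adjusted p = 0.0351), but its log2 difference was -0.43 with at least 1 Mcpt4 UMI and 3 of the other marker genes and 0.39 with the rule on Cpa3, and neither passed. Outside that list, Ncam1 (ENSMUSG00000039542, chr9:49502136-49798925, minus strand), a neural cell adhesion molecule, was found in control skin only, at 300.4 and 227 CPM, with 0 UMIs in both tumors. Against 3 UMIs over both tumor libraries, which would have been 12.8 CPM, it was at least 19.5-fold lower in skin tumors (edgeR adjusted p = 0.0325). Without the limits on Csf1r and Cd3e the log2 difference of Ncam1 was -2.59 and did not pass (edgeR adjusted p = 0.104). In the other cells Ncam1 was at 11.7 and 20.01 CPM in control skins and 4.17 and 20.3 CPM in skin tumors.

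Of 14 transcription factors of mast cells tested, 1 fell and none rose, where 1.07% of all genes tested fell and 1.11% rose. Klf4, a zinc finger factor, fell from 150.2 and 164 CPM in control skins to 8.62 and 8.50 CPM in skin tumors, which is 1 UMI in each. Pooled over libraries, control skin exceeded skin tumors 18.6-fold (95% counting interval 4.86 to 159), with edgeR adjusted p = 0.0325. In the other cells Klf4 was at 204 and 264 CPM in control skins and 136 and 166 CPM in skin tumors. Mitf, a master regulator of mast cells, was at 231 and 259 CPM in control skins and 396 and 374 CPM in skin tumors (log2 difference 0.60 ± 0.31, edgeR adjusted p = 0.373). Erg, an ETS factor, was at 104 and 143 CPM in control skins and 379 and 502 CPM in skin tumors (log2 difference 1.75 ± 0.37, edgeR adjusted p = 0.0626). Degranulation genes held no call among 8, and Rab27b, which docks the granules, was at 1098 and 1073 CPM in control skins and 1155 and 1479 CPM in skin tumors (log2 difference 0.24 ± 0.34, edgeR adjusted p = 0.775). Of 13 connective tissue mast cell markers tested outside the gate, Il1rl1 alone passed and 10 had a positive log2 difference (median 0.71).

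Several of the genes that rose most had few UMIs in control skin. Edil3, a secreted protein that binds integrins, had 0 and 1 UMIs in control skins and 51 and 20 UMIs in skin tumors, so that tumor levels exceeded control levels 83.8-fold (95% counting interval 14.6 to 3356), with edgeR adjusted p = 0.0325. Sox5, a transcription factor, had 1 and 1 UMIs in control skins and 49 and 23 UMIs in skin tumors, a ratio of 42.5-fold (95% counting interval 11.3 to 358), with edgeR adjusted p = 0.0325 and 47.8% of the UMIs of skin tumor 2 in 1 cell. Without the limits on Csf1r and Cd3e both still passed, with the log2 difference of Edil3 at 2.98 in place of 6.02 and that of Sox5 at 2.30 in place of 5.18. With at least 1 Mcpt4 UMI and 3 of the other marker genes the call of Edil3 was lost (2.65), and with the rule on Cpa3 its difference was -1.12. Both were lower in tumors among the other cells, with Edil3 at 82.4 and 106 CPM in control skins and 12.4 and 38.6 CPM in skin tumors and Sox5 at 158 and 122 CPM in control skins and 6.36 and 10.3 CPM in skin tumors. Sapcd1 had 0 and 2 UMIs in control skins and 25 and 15 UMIs in skin tumors, a ratio of 23.6-fold (95% counting interval 6.12 to 202), with edgeR adjusted p = 0.0416 and 0.972 and 0.733 CPM in control skins and 0.259 and 0.609 CPM in skin tumors in the other cells. Ndst3, a sulfotransferase of heparan sulfate, had 0 and 2 UMIs in control skins and 17 and 17 UMIs in skin tumors, a ratio of 20.1-fold (95% counting interval 5.14 to 172), but 1 cell held 64.7% and 41.2% of its UMIs in the tumors, and the other cells held 0.317 and 0.0579 CPM in control skins and 0.177 and 0.522 CPM in skin tumors (edgeR adjusted p = 0.0416). In each of these 4 genes the control libraries together held no more than 2 UMIs, so the low count filter was passed through the tumor libraries alone. The same held for Gzmb, Alox5, Pla2g7, Cd84, Itga4, Zcchc10, Hipk2 and Gm20186, for which neither control library reached the filter. Without that filter no gene passed (smallest edgeR adjusted p = 0.668). Hipk2, a nuclear kinase, and Gm20186, a noncoding transcript, rose by 3.37 ± 0.63 and 3.19 ± 0.60 on the log2 scale (edgeR adjusted p = 0.0468 and 0.0473). In the other cells Hipk2 was at 64.7 and 74.4 CPM in control skins and 135 and 150.1 CPM in skin tumors and Gm20186 at 171 and 134 CPM in control skins and 34.95 and 138 CPM in skin tumors.

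The other genes that rose had more UMIs in control skin. Mgat5, which branches N-glycans, was at 80.9 and 68.7 CPM in control skins and 396 and 578 CPM in skin tumors (log2 difference 2.68 ± 0.40, edgeR adjusted p = 0.0325). Furin, a convertase that cleaves precursor proteins, was at 196 and 322 CPM in control skins and 1060.0 and 1173 CPM in skin tumors (log2 difference 2.04 ± 0.38, edgeR adjusted p = 0.0468). Ubash3b, a phosphatase that acts on SYK and related kinases, was at 80.9 and 106 CPM in control skins and 577 and 442 CPM in skin tumors (log2 difference 2.36 ± 0.36, edgeR adjusted p = 0.0325). The calls of Mgat5 and Furin were lost with at least 1 Mcpt4 UMI and 3 of the other marker genes (log2 differences 0.42 and 0.98), and with the rule on Cpa3 both turned (-1.46 and -1.27). Each of these 3 genes was higher in both tumor libraries than in both control libraries, and 1 cell held 44.2% of the Ubash3b UMIs of skin tumor 2. Maml2, a coactivator of Notch, was at 150.2 and 259 CPM in control skins and 1017 and 1411 CPM in skin tumors (log2 difference 2.49 ± 0.42, edgeR adjusted p = 0.0416), with 43.4% of the UMIs of skin tumor 2 in 1 cell. Zcchc10, a zinc finger protein, was at 34.7 and 68.7 CPM in control skins and 284 and 374 CPM in skin tumors (log2 difference 2.50 ± 0.43, edgeR adjusted p = 0.0416), with 50% of the UMIs of skin tumor 2 in 1 cell. Fam129a was at 57.8 and 79.3 CPM in control skins and 362 and 417 CPM in skin tumors (log2 difference 2.40 ± 0.37, edgeR adjusted p = 0.0325). With at least 1 Mcpt4 UMI and 3 of the other marker genes the calls of Ubash3b (1.58) and Fam129a (1.40) were lost. Those of Maml2 (1.78) and Zcchc10 (2.19) were kept. With the rule on Cpa3 none of them passed, at 0.22 for Ubash3b, -0.85 for Fam129a, 0.72 for Maml2 and 0.05 for Zcchc10.

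Several of the genes that fell had no UMI in tumor mast cells. Gfra2, a receptor of the GDNF family, was at 219.6 and 106 CPM in control skins and was at least 11.01-fold lower in skin tumors (edgeR adjusted p = 0.0468). Ccdc141 was at least 11.9-fold lower (edgeR adjusted p = 0.0325), from 139 and 159 CPM, and Bex4 at least 10.4-fold lower (edgeR adjusted p = 0.0416), from 104 and 148 CPM. Sgcd, a sarcoglycan, had 22 and 51 UMIs in control skins and 1 and 0 UMIs in skin tumors, and control skin exceeded tumors 61.8-fold (95% counting interval 10.8 to 2476), with edgeR adjusted p = 0.0325. Ptprg, a receptor tyrosine phosphatase, had 13 and 57 UMIs in control skins and 0 and 1 UMIs in skin tumors, a ratio of 59.3-fold (95% counting interval 10.3 to 2375), with edgeR adjusted p = 0.0325. Emp1, an epithelial membrane protein, had 22 and 63 UMIs in control skins and 2 and 1 UMIs in skin tumors, a ratio of 24.00-fold (95% counting interval 7.94 to 119), with edgeR adjusted p = 0.0325. In the other cells Gfra2 was at 7.30 and 12.8 CPM in control skins and 5.61 and 7.57 CPM in skin tumors, Ccdc141 at 2.32 and 2.31 CPM in control skins and 4.76 and 11.6 CPM in skin tumors and Bex4 at 0.536 and 0.154 CPM in control skins and 0.0273 and 0.0290 CPM in skin tumors. Sgcd was there at 1.33 and 1.06 CPM in control skins and 1.26 and 4.30 CPM in skin tumors, Ptprg at 4.11 and 4.73 CPM in control skins and 5.43 and 18.4 CPM in skin tumors and Emp1 at 239.9 and 280.4 CPM in control skins and 44.6 and 117 CPM in skin tumors. Each of these 6 genes was present in both control libraries of mast cells and at no more than 2 UMIs in either tumor library. They therefore passed the low count filter through the control libraries alone, as did Ncam1, Klf4 and Cd207. So did Cadm1, Tiam1, Slc29a1, Clec10a, Fam102b, Gga2, Auts2, Icos, Tbc1d4, Chpt1, Myadm and Pdlim1, for which neither tumor library reached the filter. Genes low in both groups were not tested, so all such calls depend on the higher group having passed.

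The remaining genes that fell kept some UMIs in tumor mast cells. Chpt1, which makes phosphatidylcholine, was at 358 and 206 CPM in control skins and 17.2 and 25.5 CPM in skin tumors (log2 difference -3.66 ± 0.55, edgeR adjusted p = 0.0325). Myadm, a membrane protein, was at 347 and 459.7 CPM in control skins and 17.2 and 51.01 CPM in skin tumors (log2 difference -3.57 ± 0.50, edgeR adjusted p = 0.0325). In the other cells Chpt1 was at 10.6 and 11.4 CPM in control skins and 32.5 and 21.8 CPM in skin tumors and Myadm at 46.2 and 70.5 CPM in control skins and 49.03 and 73.5 CPM in skin tumors. In mast cells both genes were several times higher in either control library than in either tumor library. Slc29a1, the transporter that takes up adenosine, was at 485 and 285 CPM in control skins and 60.3 and 68.01 CPM in skin tumors (log2 difference -2.57 ± 0.44, edgeR adjusted p = 0.0416). Gnai1, an inhibitory G protein subunit, was at 763 and 956 CPM in control skins 1 and 2 and 267 and 179 CPM in skin tumors 1 and 2 (log2 difference -1.99 ± 0.37, edgeR adjusted p = 0.0468), and in the other cells at 6.33 and 5.79 CPM in control skins and 0.314 and 0.609 CPM in skin tumors, far below its level in mast cells. Gnai1 did not pass without the limits on Csf1r and Cd3e, at a log2 difference of -0.99 (edgeR adjusted p = 0.196). Pdlim1, Fam102b, Auts2 and Gga2 fell too, with log2 differences of -3.18, -3.03, -2.93 and -2.40 (edgeR adjusted p = 0.0416, 0.0325, 0.0438 and 0.0432).

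A few of the lower genes are known from other cell types, and for Cd207, Icos and Tbc1d4 a single cell held most of the UMIs of each control library. Cd207, which encodes langerin of Langerhans cells, was at 185 and 137 CPM in control skins with 0 UMIs in tumors, at least 11.9-fold lower (edgeR adjusted p = 0.0325). A single cell held 75% and 57.7% of its UMIs in control skins, and in the other cells Cd207 went from 1517 and 1053 to 2.32 and 13.2 CPM. Icos, a costimulatory receptor of T cells, was at 219.6 and 185 CPM in control skins and 17.2 and 42.5 CPM in skin tumors (log2 difference -2.74 ± 0.52, edgeR adjusted p = 0.0473), with 1 cell holding 52.6% and 57.1% of the UMIs in control skins. Tbc1d4, a regulator of vesicle traffic, had 15 and 20 UMIs in control skins and 1 and 1 UMIs in skin tumors, with 80% and 65% in 1 cell, and was at 793 and 734 CPM in control skins and 90.4 and 71.2 CPM in skin tumors in the other cells. Clec10a, a lectin of macrophages and dendritic cells, was at 358 and 232 CPM in control skins and 60.3 and 68.01 CPM in skin tumors (log2 difference -2.19 ± 0.42, edgeR adjusted p = 0.0495), and Tiam1, an activator of Rac, at 289 and 349 CPM in control skins and 77.6 and 68.01 CPM in skin tumors (log2 difference -2.17 ± 0.36, edgeR adjusted p = 0.0416), where the other cells stood at 324 and 391 CPM in control skins and 51.1 and 63.2 CPM in skin tumors. Clec10a did not pass without the limits on Csf1r and Cd3e, at a log2 difference of -1.04 (edgeR adjusted p = 0.167). When cells with over 3% of their UMIs from markers of other types were left out, 45 of the 47 genes were called and the counts were 54 higher and 34 lower. The other 2 were Cd207, with 4 and 9 UMIs left in control skins, and Tbc1d4, with 3 and 7, and neither had enough UMIs to be tested. Of 5 dendritic and Langerhans cell markers tested, Cd207 was the 1 that passed when all 108 cells were used, and of 4 macrophage and monocyte markers and 3 mucosal mast cell and basophil markers none did. Over all genes tested, 1.07% fell and 1.11% rose. No marker of T and NK cells, neutrophils, keratinocytes or fibroblasts had enough UMIs to be tested. For T cell markers the rule had already removed barcodes with over 1 Cd3e UMI.

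**Figure D5:**
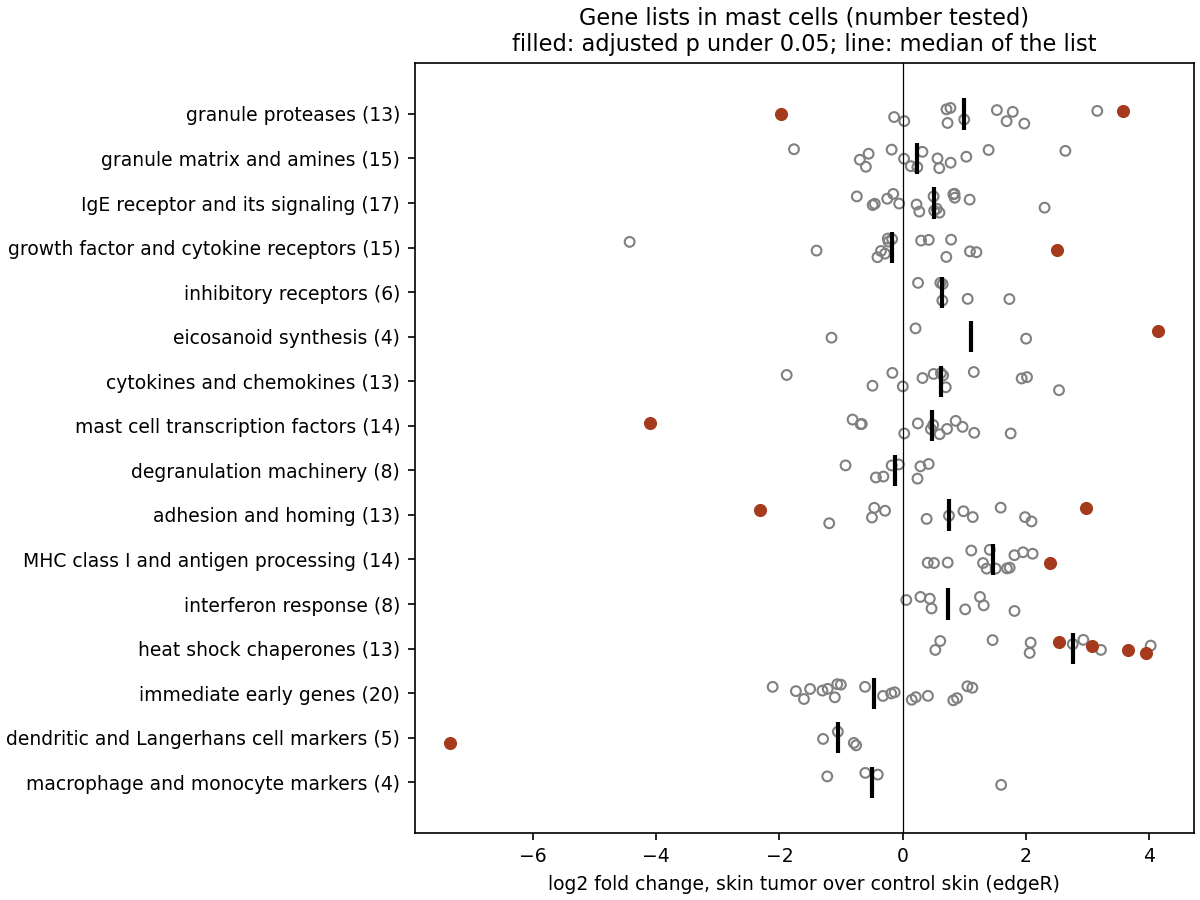
Log2 difference between skin tumors and control skin (x axis, edgeR) of each tested gene in 16 gene lists (y axis, number tested in brackets), with filled points for an adjusted p under 0.05 and a black bar at the median of the list. All 13 heat shock chaperones and all 14 MHC class I genes lie right of 0, and the filled point farthest left is Cd207, whose value rests on the prior count because tumors had 0 UMIs.

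The third question was which differences were larger or smaller in mast cells than in the 13016 other passing cells of the same libraries. An interaction between cell class and group was tested with edgeR in 14848 genes with the library as a block. The spread of a gene was set over the 8 sums of mast and other cells together. P-values of this test therefore do not measure the spread between mast cell libraries alone. The difference was more positive in mast cells for 187 genes (1.26% of those tested) and more negative for 86 (0.579%) at an adjusted p under 0.05. With limma on mean CPM per cell no gene passed in either direction, with 884 and 1255 genes at an unadjusted p under 0.05. With DESeq2 107 and 39 genes passed, without control skin 1 77 and 65 in edgeR, and without control skin 2 117 and 40. Of the 24 genes that rose, 18 passed here in the same direction, and so did 15 of the 23 that fell, while 7.89% of all genes tested in mast cells passed in either direction. The difference in mast cells, by which these genes were picked, enters the interaction. Il1rl1 was among them (3.27 on the log2 scale, edgeR adjusted p = 8.7e-10), with Alox5 (6.65, 3.5e-22), Gzmb (3.05, 6.2e-07) and Furin (3.25, 6.9e-10) above 0 and Klf4 (-3.54, 0.00246) and Cadm1 (-2.17, 0.00382) below. Gnai1 passed in the opposite direction (1.87, 0.0112), where the other cells held at most 6.33 CPM of it. Itga4 (1.51, edgeR adjusted p = 0.205), Lilr4b (1.13, 0.385), Tbc1d4 (-0.70, 1) and Icos (-0.75, 1) did not pass, so a difference between the classes was not shown for them. Fcer1a, of which the other cells held at most 2.76 CPM, did not pass either (1.80, edgeR adjusted p = 0.0704).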

How the data were processed

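Single-cell 3′ UMI libraries of sorted CD45+/DAPI- cells were read from the filtered matrices of 4 libraries. The authors mapped reads to mm10 with Cell Ranger 7.1.0 per the labels (7.0.1 per the file headers) and deposited whole-number UMI counts per gene and barcode. Whether intronic reads were counted is not given in the sources used here. The authors also removed doublets before their own analysis; no doublet caller was run here, and the limits on Csf1r and Cd3e remove barcodes that hold macrophage or T cell RNA. Barcodes with at least 1000 UMIs and at most 15% mitochondrial UMIs were kept and gated as described in the report. The UMIs of all mast cells of a library were added up, and edgeR 4.0.16 in R 4.3.3 (TMM, filterByExpr, quasi-likelihood, Benjamini-Hochberg, threshold 0.05) compared the sums between groups, pooling the spread over both. A standard error is the log2 difference divided by the square root of F. The interaction was fitted on 8 sums (mast and other cells of each library) with library as a block. Alternatives used limma 3.58.1 and DESeq2 1.42.0, other scalings, filters and gates, and each library left out. On simulated counts with 200 of 2155 genes changed, the test recovered 0.5%, 69% and 89.5% of log2 differences of 1, 2 and 3. Depth per library was 34893543 to 73904272 UMIs. UMIs of genes at 0 in a group were set at 3 counts over the group for a bound.

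A further allele of the tumor line is not reported here. The mast cells, the gene lists and the tests were chosen with earlier results of these data known. Genes were named by rule: those the study names for mast cells, up to 4 called members and the abundant members of each list, and the 12 called genes with the largest log2 difference in each direction; the remaining called genes and single list members were named after their values were seen. Gate genes stayed among the 2155 genes of the fit, where 0 of them were called, and no test of a gate gene is reported. Counts over 2140 genes leave them out. Gene coordinates are from GENCODE M21 (GRCm38) and promoters from RefSeq GRCm38.p6.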

Additional observations from a re-analysis of the deposited data

Results flagged for a closer look

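For 34 of the 47 genes called in mast cells, the difference between skin tumors and control skin also differed between mast cells and the other CD45+ cells of the same libraries (edgeR interaction test with the library as a block, adjusted p under 0.05). Of all genes tested in mast cells 7.89% passed that test, and the difference by which the 47 were picked enters it. The values below are the log2 difference in mast cells minus that in other cells. Among genes that rose in tumor mast cells it was 3.27 for Il1rl1, 6.65 for Alox5, 3.05 for Gzmb, 3.25 for Furin, 3.11 for Mgat5, 3.06 for Ubash3b, 3.13 for Zcchc10, 2.85 for Fam129a, 2.33 for Maml2, 2.31 for H2-Q6, 2.12 for Cd84, 2.14 for Pla2g7 and 4.36 for Gm20186. The chaperones stood at 2.05 for Dnaja1, 1.93 for Hsph1 and 1.73 for Hspa1a. It reached 9.43 for Sox5 and 8.55 for Edil3, where control skin held 2 UMIs and 1 UMI in mast cells while the other cells went the opposite way. Among genes that fell it was -3.54 for Klf4, -2.17 for Cadm1, -4.91 for Chpt1, -3.64 for Myadm, -3.60 for Slc29a1, -3.27 for Fam102b, -2.76 for Emp1, -2.74 for Gga2, -2.71 for Clec10a and -2.65 for Auts2. Sgcd and Ptprg, with 1 UMI each in tumor mast cells, stood at -7.08 and -7.14. Ccdc141, Ncam1 and Gfra2 had no UMI in tumor mast cells, and their values of -16.70, -15.31 and -14.30 depend on the prior count and are no bounds. Gnai1 stood at 1.87, above 0 although it fell in mast cells.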

How the results depend on the processing

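The counts of higher and lower genes (24 and 23) moved with many choices. They were 8 and 11 with DESeq2's size factors in edgeR, 35 and 19 with DESeq2, 23 and 22 with the granule proteases out of the scaling, 41 and 26 with a filter of 10 UMIs in 2 libraries, 21 and 37 with limma on mean CPM per cell, where the median gene moved to -0.25, and 24 and 23 with a limit on genes per UMI. With a replicate block they were 62 and 39, with all 47 genes among them, but the replicate numbers are shared by 2 pairs only and nothing says that they pair the animals (deviations correlated at 0.101 for both numbers). No gene passed edgeR in either direction without the low count filter (smallest adjusted p = 0.668, with 313 and 350 genes at an unadjusted p under 0.05), with 5 Mcpt4 UMIs as the limit (0.0690, 203 and 172), with at least 2000 UMIs per cell (0.0630, 200 and 148), without control skin 1 (0.658, 82 and 79) or without control skin 2 (0.601, 133 and 79). Leaving out 1 library, the counts ranged from 0 to 202 higher and from 0 to 136 lower. With 20 Mcpt4 UMIs as the limit they were 15 and 17, without limits on Csf1r and Cd3e 89 and 70, with 12 of the 47 calls lost, with at least 1 Mcpt4 UMI and 3 UMIs of Kit, Gata2 and Ms4a2 68 and 85 with 17 of the 47 calls lost, and with few markers of other cell types 54 and 34. With at least 5 UMIs of Cpa3, Kit, Gata2 and Ms4a2 in place of both limits on marker genes, and so no requirement on Mcpt4, they were 48 and 149, sharing 5 of the 47 genes. That gate took 90, 104, 90 and 36 cells, of which 69, 62, 58 and 9 had no Mcpt4 UMI, and it reversed 9 genes: Cadm1 to 0.39, Cd84 to -1.44, Edil3 to -1.12, Fam129a to -0.85, Furin to -1.27, Gm20186 to -1.42, H2-Q6 to -0.22, Mgat5 to -1.46 and Tbc1d4 to 0.53 on the log2 scale. The other 38 genes kept their sign in every fit that tested them. Interaction counts (187 and 86) were 107 and 39 with DESeq2, 0 and 0 with limma per cell (884 and 1255 at an unadjusted p under 0.05), 506 and 363 with that rule on Cpa3, Kit, Gata2 and Ms4a2, 77 to 141 and 40 to 76 without 1 library, and for the smaller differences 319 without limits on Csf1r and Cd3e, 133 with at least 1 Mcpt4 UMI, and 56 against C1q-positive macrophages. The difference in share (-0.0104 percentage points) was -0.492 without limits on Csf1r and Cd3e, -1.24 with the rule on Cpa3, Kit, Gata2 and Ms4a2, -0.245 with at least 1 Mcpt4 UMI and 3 UMIs of Kit, Gata2 and Ms4a2, 0.112 with at least 2000 UMIs, 0.00289 with few markers of other cell types, and -0.317 to 0.296 without 1 library. Apart from the smaller number of samples or cells, the cause of these moves was not tested. Depth limits genes of few UMIs most, since 3 UMIs over a group are 10.9 CPM in control skins and 12.8 CPM in skin tumors.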

Other observations

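Some members of the gene lists described above by their counts had levels that set the libraries apart without passing the test. Cd9, a tetraspanin, was at 92.4 and 84.5 CPM in control skins and 249.9 and 468 CPM in skin tumors (log2 difference 1.99 ± 0.44, edgeR adjusted p = 0.0716), and Cd63, the tetraspanin of granule membranes that marks degranulation, at 682 and 888 CPM in control skins and 1706 and 1615 CPM in skin tumors (log2 difference 1.03 ± 0.34, edgeR adjusted p = 0.175). Cd93 was at 34.7 and 52.8 CPM in control skins and 172 and 238 CPM in skin tumors (log2 difference 2.09 ± 0.45, edgeR adjusted p = 0.0684). In all 3 both tumor libraries lay above both control libraries. Ldha and Pkm, enzymes of glycolysis, were at 428 and 639 CPM in control skins and 1086 and 867 CPM in skin tumors (log2 difference 0.82 ± 0.36, edgeR adjusted p = 0.305) and at 127 and 174 CPM in control skins and 465 and 349 CPM in skin tumors (log2 difference 1.35 ± 0.35, edgeR adjusted p = 0.116). Klf6 and Klf2, Krueppel-like factors, were at 1606 and 1221 CPM in control skins and 715 and 536 CPM in skin tumors (log2 difference -1.22 ± 0.35, edgeR adjusted p = 0.144) and at 381 and 518 CPM in control skins and 371 and 68.01 CPM in skin tumors (log2 difference -1.10 ± 0.64, edgeR adjusted p = 0.430), with both tumor values below both control values as in Klf4. Mki67, a marker of dividing cells, was at 80.9 and 47.6 CPM in control skins and 155 and 136 CPM in skin tumors (log2 difference 1.23 ± 0.44, edgeR adjusted p = 0.205). Itgb2, the common chain of leukocyte integrins, had 0 and 1 UMIs in control skins and 1 and 19 UMIs in skin tumors, so that skin tumor 2 held nearly all of it, in 5 of 23 cells. Skin tumor 2 also held 3 of the 4 mast cells with 10 or more Lyz2 UMIs.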
